A study of Mus musculus with 6 samples.

Results

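The genes described here are the potassium channel genes from the Kcnd to the Kcnv families: every gene whose symbol starts with Kcnd, Kcne, Kcnf, Kcnh, Kcnip, Kcnj, Kcnma, Kcnmb, Kcnn, Kcnq, Kcns, Kcnt or Kcnv. Members were taken by symbol, and each was read from its probe set of highest mean among those that name 1 gene. The rule found 55 genes of the 18193 with such a probe set on the array, and 52 of them code for proteins. The other 3 are long non-coding RNA genes that carry a channel's symbol, Kcnmb4os1, Kcnmb4os2 and Kcnq1ot1. By family they were 3 Kcnd, 5 Kcne, 1 Kcnf, 6 Kcnh, 4 Kcnip, 15 Kcnj, 1 Kcnma, 5 Kcnmb, 4 Kcnn, 4 Kcnq, 3 Kcns, 2 Kcnt and 2 Kcnv genes.

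Tissue came from 3 auditory brainstem nuclei of male C57BL/6J mice: the ventral cochlear nucleus or VCN, the first relay of auditory nerve input, the lateral superior olive (LSO), which compares sound level between the ears, and the trapezoid body's medial nucleus (MNTB), whose glycinergic principal neurons inhibit the LSO. Each nucleus was sampled at postnatal day 3 (P3), before the onset of hearing, and at P14, shortly after it. The 6 groups, VCN, LSO and MNTB at P3 and at P14, differed by label only in nucleus, age and pool size: all mice were of 1 strain and 1 sex with no treatment named, and each group was 1 pool of tissue (6 animals at P3, 3 at P14) on 1 Affymetrix mouse whole-genome array. The pieces were dissected by hand from slices and hold every cell type of the nucleus, so fewer cells of a type and less RNA per cell cannot be told apart.

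Potassium channels set how strongly a neuron is held near rest, how fast its action potentials end and how long it stays silent afterwards. Kv4 channels (Kcnd) carry fast inactivating A-type currents, Kv7 channels (Kcnq) the slow M-current, and Kir channels (Kcnj) an inward-rectifying current that holds the resting potential in neurons and, in astrocytes, clears potassium released by firing. BK (Kcnma), SK (Kcnn) and sodium-activated (Kcnt) channels open with calcium or sodium entry, while the KChIP (Kcnip), Kcne, Kcnmb and electrically silent Kcnf, Kcns and Kcnv subunits alter channels built from other genes.

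All values are log2 expression, so a difference of 1 is a 2-fold difference in signal. Levels are compared between arrays for 1 probe set only, never between genes. Genes with a mean of at least 5.57 over the 6 arrays were tested, which kept 40 members of 55 and 12958 genes in all. Age was tested with limma as P14 minus P3 with nucleus in the model, and a gene was called at a Benjamini-Hochberg adjusted p under 0.05. Since no group was repeated, a gene's own spread behind each p-value is how far the age difference varied between the 3 nuclei. The limma fit draws this spread toward that of genes of like mean signal, with 2 residual and 3.95 prior degrees of freedom. The p-values for age thus measure repetition over nuclei and not over animals. In a fit that left out 1 array, the age difference rested on the nuclei that kept both ages. Leaving out either array of a nucleus therefore gave the same estimate. Pool size went with age, as did the 3' to 5' signal difference of the Gapdh control sets (1.21 to 1.41 at P3, 1.06 to 1.11 at P14), and these cannot be told apart from age.

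Age was called for 16 of the 40 tested members (40%), beside 41.0% of all tested genes. Of these, 7 rose from P3 to P14 (background 23.4%) and 9 fell (background 17.7%). The 3 values at P3 and the 3 at P14 did not overlap for 21 members, where 53.6% of all tested genes had no overlap. The share of changed members was thus near that of the array as a whole. The median age difference was -0.06 over the 40 members and 0.03 over all tested genes. All 16 called members moved the same way in the 3 nuclei, and 5 of them moved by at least 1 log2 unit: Kcnj10, Kcnj9, Kcns2, Kcnip1 and Kcnmb4.

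**Figure D1:**
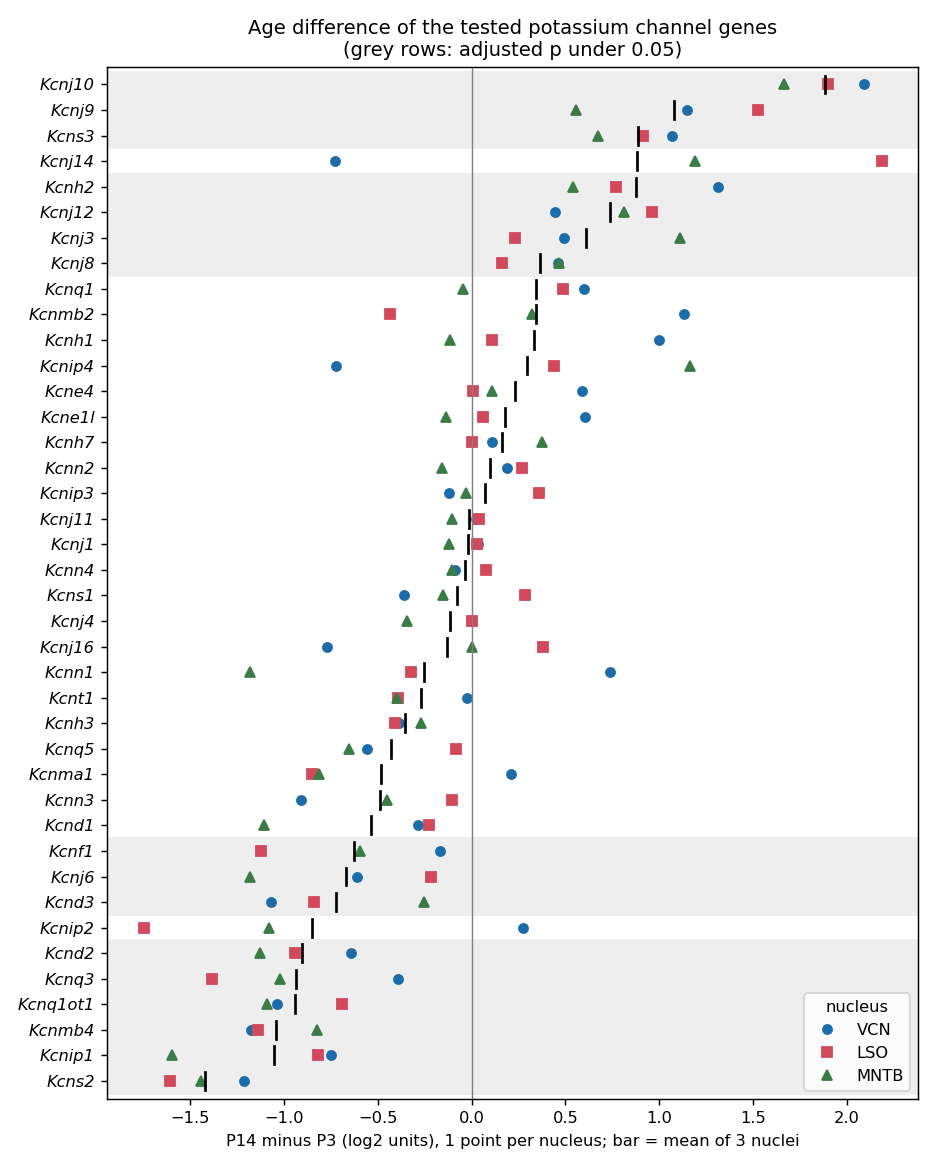
Age difference (P14 minus P3, log2 units) of the 40 tested genes, with 1 point per nucleus, a bar at the mean of the 3 nuclei and grey rows for the 16 genes called. Kcnj10 stands at the top with 1.67 to 2.09 in the 3 nuclei and Kcns2 at the bottom with -1.60 to -1.21, while Kcnj14, Kcnip4 and Kcnn1 have points on both sides of 0.

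Of the inward rectifiers, the largest family with 11 tested Kcnj members, 5 rose and 1 fell, so that 54.5% were called beside the 41.0% of all tested genes. The member with the largest change was among them. Kcnj10 encodes Kir4.1, the main potassium channel of astrocytes and also present in oligodendrocytes. It measured 9.55, 9.57 and 9.46 at P3 in VCN, LSO and MNTB, and 11.64, 11.47 and 11.13 at P14. The P3 values spanned 0.11, and every P14 value was far above them. Kcnj10 rose by 1.88 ± 0.10 (SE; a 3.69-fold rise, adjusted p = 0.000378), and nucleus accounted for 1.80% of its variation. Its partner gene Kcnj16 encodes Kir5.1, which forms channels together with Kir4.1. Kcnj16 measured 10.44, 10.51 and 10.37 at P3 in VCN, LSO and MNTB, and 9.67, 10.88 and 10.37 at P14. It was lower at P14 in VCN, higher in LSO and level in MNTB, and was not called (-0.13, adjusted p = 0.646). Its second probe set gave a mean difference of the other sign, 0.16, with -0.48 in VCN, 0.64 in LSO and 0.33 in MNTB.

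Of 10 astrocyte markers 5 rose and 2 fell (70% called, beside 41.0% of all tested genes). Their summed signal was 14.69 to 14.89 at P3 and 15.09 to 15.29 at P14 (log2). From P3 to P14 their median went from 10.79 to 11.40 in VCN and 10.99 to 11.71 in LSO. In MNTB it was level, at 11.56 and 11.57. All 11 myelin genes tested rose too, with sums of 13.17 to 14.43 at P3 and 15.92 to 16.06 at P14. The part of either cell type in the rise of Kcnj10 was not tested. Kir4.1 shares astrocyte endfeet with the water channel aquaporin 4 and the dystroglycan complex. Of 3 tested genes of that group, Aqp4, also counted among the astrocyte markers above, rose by 0.32, the dystroglycan gene Dag1 fell by 0.35, and Dtna was not called. The share called was 66.7%, beside 41.0% of all tested genes.

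Kcnj9, which encodes the G protein-gated subunit GIRK3, lies next to Kcnj10 on chromosome 1 and rose as well. It measured 7.31, 7.21 and 7.0 at P3 in VCN, LSO and MNTB, and 8.45, 8.73 and 7.56 at P14. The 2 groups of values did not overlap, and MNTB was the lowest nucleus at both ages. The rise was 1.08 ± 0.20 (adjusted p = 0.00803). Taking the median over all 4 of its probe sets gave 0.33, which was not called (adjusted p = 0.0776); the 2 dimmer sets lay below the filter on low values. The starts of the genes of this pair are shown as the 250 bases before each RefSeq transcription start (GRCm38.p6), because the pair is adjacent and moved together; the array files carry no genome coordinates. Capitals mark exact matches, on either strand, to 1 of 5 motifs. They are the GC box, spelled GGGCGG, the TATA box, spelled TATAAA, the CCAAT box of those letters, the E-box of the letters CAGCTG, and the cyclic AMP response element of the letters TGACGTCA.
Kcnj9, chr1:172329323-172329572, minus strand: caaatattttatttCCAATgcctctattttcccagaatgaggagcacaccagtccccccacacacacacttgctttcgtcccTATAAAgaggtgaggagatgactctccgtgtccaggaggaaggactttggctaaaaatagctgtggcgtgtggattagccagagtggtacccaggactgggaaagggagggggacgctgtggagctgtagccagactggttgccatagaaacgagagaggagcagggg
Kcnj10, chr1:172340960-172341209, plus strand: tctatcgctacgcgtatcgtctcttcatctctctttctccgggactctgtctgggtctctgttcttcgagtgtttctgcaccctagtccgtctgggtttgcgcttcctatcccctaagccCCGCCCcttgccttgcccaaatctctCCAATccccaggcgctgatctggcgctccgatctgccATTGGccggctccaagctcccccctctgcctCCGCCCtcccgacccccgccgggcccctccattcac
The Kcnj9 window held 1 TATA box and 1 CCAAT box, and that of Kcnj10 held 2 GC boxes and 2 CCAAT boxes. No matches overlapped. Of 32851 mouse windows of this length, 12.4% held the TATA box, 33.8% the CCAAT box and 32.7% the GC box. Of the 5 motifs, only the CCAAT box was found in both windows. A match is a description of letters, not a binding site.

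The other GIRK genes went separate ways. Kcnj3 encodes GIRK1, the subunit that most neuronal GIRK channels share. It measured 8.99, 8.80 and 8.28 at P3 in VCN, LSO and MNTB, and 9.48, 9.04 and 9.39 at P14. The lowest value at P14 was 0.05 above the highest at P3, and the rise was 0.61 ± 0.18 (adjusted p = 0.0375). It was largest in MNTB, at 1.11, and without either MNTB array the estimate was 0.36 and no longer called (adjusted p = 0.139 and 0.146); the call was also lost without either VCN array. The highest value of the control sets for which no RNA was added was 4.42. Of the 4 Kcnj3 probe sets, 3 had a mean above it and all 3 were higher at P14. Kcnj6, the gene of GIRK2, measured 7.37, 6.85 and 7.93 at P3 and 6.76, 6.64 and 6.75 at P14. The P14 values spanned 0.12 and lay below all P3 values, of which MNTB was the highest. Kcnj6 fell by 0.67 ± 0.20 (adjusted p = 0.0401). The median over its 5 probe sets gave -0.03 (adjusted p = 0.865), and without either MNTB array the estimate was -0.41 and not called (adjusted p = 0.173 and 0.172), nor was it without either VCN array. Kcnj5, the gene of GIRK4, was not tested and stayed between 4.30 and 5.06.

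Genes that couple GABA-B receptors to GIRK channels or regulate them were read from a fixed list. Of 6 tested, 2 fell and none rose (33.3% called, beside 41.0% of all tested genes). The falls were 0.50 for Gabbr1, a subunit of the receptor, and 0.73 for Kctd16, an auxiliary subunit. Rgs6, which speeds the end of G protein signals, measured 7.35, 7.56 and 5.70 at P3 and 7.57, 7.91 and 6.81 at P14 and was not called (0.56, adjusted p = 0.0649). It was lowest in MNTB at both ages.

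Kcnj12 encodes Kir2.2, a strong rectifier that holds the resting potential. It measured 7.05, 6.75 and 6.54 at P3 in VCN, LSO and MNTB, and 7.49, 7.71 and 7.36 at P14, with no overlap. It rose by 0.74 ± 0.15 (adjusted p = 0.0102). Without either LSO or either MNTB array it was not called (adjusted p of 0.0574 to 0.0586), at differences of 0.63 and 0.70. Kcnj2, the gene of the close relative Kir2.1, fell below the filter but measured 5.26, 4.80 and 5.05 at P3 and 5.80, 5.80 and 5.78 at P14. Its P14 values were all above its P3 values, and with no filter it was called (0.75, adjusted p = 0.0126). Kcnj4, the gene of Kir2.3, stayed between 6.32 and 6.74 and was not called.

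Kcnj14 encodes Kir2.4, best known from motor neurons of the cranial nerves, and had the widest spread of all tested members. It measured 5.49, 6.21 and 5.63 at P3 in VCN, LSO and MNTB, and 4.77, 8.40 and 6.82 at P14. LSO at P14 was the highest value and VCN at P14 the lowest. Age was not called for Kcnj14 (0.88 ± 0.51, adjusted p = 0.215). Without either VCN array the estimate was 1.69, which rests on LSO and MNTB alone, the nuclei where the gene was higher at P14.

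Of the subunits of ATP-sensitive channels, Kcnj8, the gene of Kir6.1 in vascular smooth muscle and pericytes, measured 8.81, 8.94 and 8.68 at P3 and 9.27, 9.11 and 9.15 at P14. The values did not overlap and it rose by 0.36 ± 0.11 (adjusted p = 0.0429). The call was lost in each of the 6 fits that left out 1 array, with an adjusted p of up to 0.204. Abcc9, which lies next to Kcnj8 on chromosome 6 and encodes its usual partner SUR2, measured 7.58, 7.79 and 7.72 at P3 and 8.55, 8.24 and 8.09 at P14. It rose by 0.60 ± 0.15 (adjusted p = 0.0253). Of 9 pericyte and smooth muscle markers 4 rose and 1 fell. Their summed signal was 11.71 to 12.01 at P3 and 12.54 to 12.63 at P14. Their median did not follow the sum. From P3 to P14 it went from 8.18 to 7.38 in VCN, 8.01 to 8.06 in LSO and 8.20 to 7.51 in MNTB. Of 8 endothelial markers 7 rose. The shares called were 55.6% and 87.5%, beside 41.0% of all tested genes. The part of these cells in the rise of Kcnj8 was not tested. The neuronal pair Kcnj11 (Kir6.2) and Abcc8 (SUR1), adjacent on chromosome 7, was called in neither gene: Kcnj11 stayed between 7.72 and 7.95 and Abcc8 between 7.30 and 7.88.

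Kcnj1, the gene of the renal channel Kir1.1, was level at 5.54 to 5.69. Kcnj13 encodes Kir7.1 of the choroid plexus, and Kcnj15 encodes Kir4.2; neither was tested. Kcnj13 measured 4.43 to 5.59 and was called lower with no filter (-0.63, adjusted p = 0.0453), and Kcnj15 at 3.25 to 4.12 lay on all arrays at or below 4.42, the highest unspiked control. By the RefSeq table of this build, the other adjacent pairs with a member are Kcnj16 and Kcnj2, Kcnj6 and Kcnj15, Kcnj5 and Kcnj1, and Kcnip1 and Kcnmb1. None of these pairs had both genes tested and called.

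**Figure D2:**
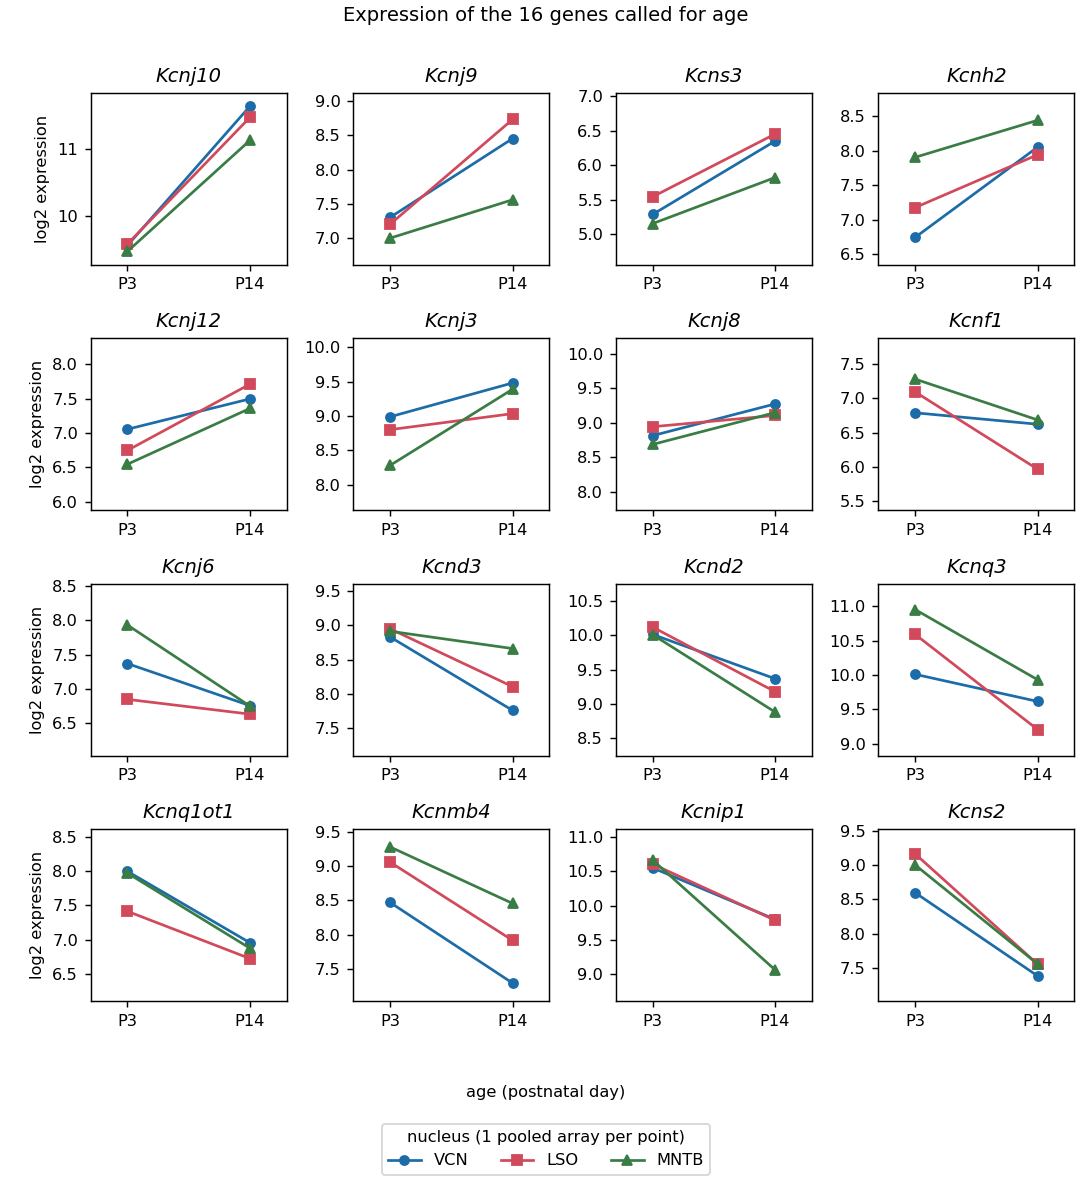
Log2 expression of the 16 genes called for age, with 1 panel per gene and 1 pooled array per point, joined within each nucleus from P3 to P14; the axes start at different levels. All lines rise in the panels of the 7 higher genes, Kcnj10 from 9.46 to 9.57 at P3 to 11.13 to 11.64 at P14, and all lines fall in the panels of the 9 lower genes.

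Of the 3 genes of A-type channels, 2 fell and none rose (66.7% called, beside 41.0% of all tested genes). Kcnd2, the gene of the pore subunit Kv4.2, measured 10.01, 10.12 and 10.01 at P3 in VCN, LSO and MNTB, and 9.37, 9.18 and 8.88 at P14. The P3 values were nearly level across nuclei, and each P14 value was lower. Kcnd2 fell by 0.90 ± 0.12 (adjusted p = 0.00267), and its 3 probe sets with a mean above the unspiked controls gave differences of -0.90 to -0.78. Kcnd3, the gene of Kv4.3, measured 8.83, 8.95 and 8.91 at P3 and 7.76, 8.11 and 8.66 at P14. It was also level across nuclei at P3, and at P14 VCN was the lowest and MNTB the highest, the reverse of Kcnd2. Kcnd3 fell by 0.72 ± 0.17 (adjusted p = 0.02). The call was lost without either VCN or either LSO array (adjusted p of 0.0515 to 0.0948), at differences of -0.55 and -0.66. Kcnd1, the gene of Kv4.1, measured 6.65, 6.94 and 6.94 at P3 and 6.37, 6.72 and 5.83 at P14. In this probe set it was lower in each nucleus but not called (-0.54, adjusted p = 0.0794), whereas the median over probe sets was called (-0.63, adjusted p = 0.0237). Its other probe sets gave differences of -0.75 and 0.03, so not every set shared the fall. The 250 bases before the starts of both called pore genes are shown in the same way, since both fell.
Kcnd2, chr6:21215096-21215345, plus strand: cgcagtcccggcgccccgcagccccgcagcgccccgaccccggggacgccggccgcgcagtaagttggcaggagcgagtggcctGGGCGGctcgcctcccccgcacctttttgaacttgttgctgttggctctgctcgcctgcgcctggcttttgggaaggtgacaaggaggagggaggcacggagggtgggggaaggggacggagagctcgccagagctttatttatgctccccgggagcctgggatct
Kcnd3, chr3:105451640-105451889, plus strand: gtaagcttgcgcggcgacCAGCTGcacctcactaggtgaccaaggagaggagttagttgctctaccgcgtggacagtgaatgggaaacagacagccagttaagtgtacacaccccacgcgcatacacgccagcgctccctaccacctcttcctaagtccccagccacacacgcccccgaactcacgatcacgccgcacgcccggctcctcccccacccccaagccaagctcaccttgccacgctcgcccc
The Kcnd2 window held 1 GC box and the Kcnd3 window 1 E-box, a match that 13% of all windows hold. The windows had no kind of match in common. The cyclic AMP response element, which 1.55% of all windows hold, was in none of the 4 windows shown.

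KChIP proteins bind the start of Kv4 subunits and bring them to the membrane. Of the 4 Kcnip genes 1 was called (25%, beside 41.0% of all tested genes), Kcnip1. It measured 10.55, 10.61 and 10.66 at P3 in VCN, LSO and MNTB, and 9.80, 9.79 and 9.07 at P14. The P3 values spanned 0.11, and MNTB at P14 was the lowest. Kcnip1 fell by 1.05 ± 0.18 (adjusted p = 0.00605). Each of its 4 probe sets was lower at P14, with differences of -1.05 to -0.46. Kcnip2 measured 7.85, 8.76 and 8.48 at P3 and 8.13, 7.02 and 7.40 at P14. LSO and MNTB were lower at P14 by 1.74 and 1.08, while VCN was 0.28 higher, and the gene was not called (-0.85, adjusted p = 0.11). Without either VCN array the estimate was -1.41, which rests on LSO and MNTB alone, the nuclei where the gene was lower. Kcnip3, whose product is also the transcriptional repressor DREAM, was level at 10.09 to 10.45. Kcnip4 measured 8.41, 8.89 and 8.06 at P3 and 7.69, 9.33 and 9.22 at P14. It was lower at P14 in VCN and higher in LSO and MNTB, and was not called (0.29, adjusted p = 0.514). Without either VCN array the estimate was 0.80, which rests on LSO and MNTB alone.

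Of 3 further Kv4 partner genes from the fixed list, 1 fell (33.3% called, beside 41.0% of all tested genes). Flna, whose product filamin A anchors Kv4.2, fell by 1.01 ± 0.11 (adjusted p = 0.00158). Dpp6 and Dpp10 encode transmembrane subunits that speed Kv4 gating. Dpp6 stayed between 9.82 and 10.12 (-0.14, adjusted p = 0.27), and Dpp10 measured 8.25, 8.50 and 8.09 at P3 and 8.12, 8.09 and 7.32 at P14 (-0.44, adjusted p = 0.062).

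Electrically silent subunits form no channel alone and join Kv2 subunits. Kcns2, the gene of Kv9.2, had the largest fall of all tested members. It measured 8.60, 9.16 and 9.0 at P3 in VCN, LSO and MNTB, and 7.39, 7.56 and 7.56 at P14. All P14 values lay more than 1 log2 unit below the lowest P3 value, and they were close to each other. Kcns2 fell by 1.42 ± 0.12 (adjusted p = 0.000799), and its second probe set gave -0.88. Kcns3, the gene of the relative Kv9.3, rose. It measured 5.28, 5.54 and 5.15 at P3 and 6.35, 6.45 and 5.82 at P14, with no overlap and MNTB lowest at both ages. The rise was 0.88 ± 0.14 (adjusted p = 0.00455), and its second, dimmer probe set read 3.58 to 4.02 at P3 and 4.70 to 6.48 at P14.

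Kcns1 (Kv9.1) was level at 5.69 to 6.21. Kcnf1, the gene of Kv5.1, measured 6.79, 7.09 and 7.28 at P3 and 6.62, 5.97 and 6.69 at P14. The values did not overlap, though by 0.10 only, and Kcnf1 fell by 0.63 ± 0.20 (adjusted p = 0.0481). This is the least firm of the calls by its p. It was lost when the arrays were centred on their medians (adjusted p = 0.0531) and without either LSO array, where the estimate was -0.38 (adjusted p of 0.192 and 0.197), or either MNTB array. Neither Kcnv gene was tested: Kcnv2 was at 2.25 to 2.26, below the unspiked controls, and Kcnv1 at 3.54 to 4.42.

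Of 4 tested Kcnq members 2 fell and none rose (50% called, beside 41.0% of all tested genes). The 2 were Kcnq3 and the non-coding Kcnq1ot1. Kcnq3 encodes a subunit of the M-channel. It measured 10.01, 10.59 and 10.95 at P3 in VCN, LSO and MNTB, and 9.62, 9.21 and 9.93 at P14. MNTB was the highest nucleus at both ages, and its P14 value was 0.08 below the VCN value at P3. Kcnq3 fell by 0.93 ± 0.19 (adjusted p = 0.0107). Without either MNTB array the estimate was -0.89 and not called (adjusted p of 0.0527 and 0.0548). Kcnq5, another M-channel gene, measured 8.01, 7.58 and 7.59 at P3 and 7.45, 7.50 and 6.94 at P14. It was lower at P14 in each nucleus, by 0.08 in LSO, and not called (-0.43, adjusted p = 0.0655). Its 3 probe sets gave -1.72 to -0.21, and their median was called (-1.37, adjusted p = 0.000615); without either LSO array it was called too (-0.61, adjusted p = 0.0433 and 0.0447). Kcnq1, known from heart and inner ear, measured 5.68 to 6.07 at P3 and 6.02 to 6.35 at P14 and was not called (0.35, adjusted p = 0.147).

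Kcnq1ot1 is a long non-coding RNA transcribed within Kcnq1 from the paternal chromosome, where it silences neighbouring genes. It measured 8.0, 7.42 and 7.97 at P3 and 6.96, 6.73 and 6.88 at P14. Every P14 value was below every P3 value. Kcnq1ot1 fell by 0.94 ± 0.13 (adjusted p = 0.00353), and each of its 4 probe sets with a mean above the unspiked controls was lower at P14. Of 4 tested partners of the M-channel, 2 fell and none rose (50% called, beside 41.0% of all tested genes). Akap5, which tethers protein kinases to the channel, fell by 1.60 ± 0.13 (adjusted p = 0.00069). Nedd4l, the gene of a ubiquitin ligase that removes the channel, fell by 0.90 ± 0.12 (adjusted p = 0.00306). Ank3, the gene of ankyrin G, which holds the channel at the axon's initial segment, stayed between 10.76 and 11.06.

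Among the Kcnh genes 1 of 4 tested was called (25%, beside 41.0% of all tested genes). Kcnh2, the gene of the ERG1 channel whose current shapes repolarisation in heart and neurons, measured 6.74, 7.17 and 7.91 at P3 in VCN, LSO and MNTB, and 8.05, 7.94 and 8.44 at P14. MNTB was the highest nucleus at both ages, and its P3 value was 0.04 below the lowest at P14. Kcnh2 rose by 0.87 ± 0.17 (adjusted p = 0.0104). Kcnh7, the gene of ERG3, measured 7.16, 7.40 and 7.95 at P3 and 7.27, 7.40 and 8.33 at P14, again highest in MNTB, and was not called for age (0.16, adjusted p = 0.35). Kcnh3, the gene of ELK2, was lower at P14 in each nucleus, at 7.43 to 7.53 against 7.02 to 7.26, and not called (-0.35, adjusted p = 0.0532). It was called with no intensity trend (adjusted p = 0.0354) and with no nucleus term (0.039). Its other probe sets did not share the fall, with differences of -0.03, 0.12 and 0.01.

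Kcnh1, the gene of EAG1, measured 6.23, 6.45 and 5.12 at P3 and 7.23, 6.56 and 5.0 at P14, and was lowest in MNTB at both ages. Kcnh5 (EAG2) and Kcnh8 (ELK1) were not tested. Kcnh5 lay at or below 4.42 on every array but VCN at P14, at 5.21, and Kcnh8 measured 4.95 to 5.57 at P3 and 4.15 to 4.78 at P14.

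Calcium-activated and sodium-activated channels followed. Kcnma1, the pore gene of the BK channel, measured 9.04, 9.52 and 9.34 at P3 in VCN, LSO and MNTB, and 9.24, 8.67 and 8.52 at P14. It was lower at P14 in LSO and MNTB, by 0.85 and 0.81, and 0.21 higher in VCN, and was not called (-0.48, adjusted p = 0.132). Without either VCN array the estimate was -0.83, which rests on LSO and MNTB alone, the nuclei where the gene was lower. Kcnmb4 encodes the neuronal beta subunit that slows BK gating. It measured 8.47, 9.06 and 9.28 at P3 and 7.30, 7.92 and 8.46 at P14. Values kept the order VCN, LSO, MNTB at both ages, and the highest at P14 was 0.01 below the lowest at P3. Kcnmb4 fell by 1.04 ± 0.12 (adjusted p = 0.00176), and nucleus accounted for 37.0% of its variation.

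Kcnmb4os1 and Kcnmb4os2 are long non-coding RNA genes that overlap Kcnmb4. Both lay below the filter. Kcnmb4os1 measured 5.26, 5.43 and 5.69 at P3 and 5.01, 4.91 and 5.19 at P14, and Kcnmb4os2 5.41, 5.41 and 5.82 at P3 and 4.96, 4.78 and 5.29 at P14. Both were lower at P14 with no overlap, as Kcnmb4 was, and with no filter both were called (adjusted p = 0.0497 and 0.0205). How far the sets for these genes and Kcnmb4 read separate transcripts was not tested. Kcnmb2, the gene of an inactivating beta subunit, measured 6.19, 6.27 and 7.46 at P3 and 7.33, 5.84 and 7.78 at P14 and was not called (0.34, adjusted p = 0.38). Kcnmb1, the beta subunit gene of smooth muscle, was not tested, at 4.72 to 5.53. Lingo1, the one called gene of 2 tested BK partners (50%, beside 41.0% of all tested genes), fell by 0.95 ± 0.11 (adjusted p = 0.00158).

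None of the 4 SK channel genes was called for age, beside 41.0% of all tested genes. Kcnn1 measured 8.28, 8.67 and 9.44 at P3 in VCN, LSO and MNTB, and 9.01, 8.35 and 8.26 at P14. MNTB was the highest nucleus at P3 and VCN at P14. Over all arrays the difference was -0.25 (adjusted p = 0.575). Without either VCN array it was -0.75, which rests on LSO and MNTB alone, the nuclei where the gene was lower at P14. Kcnn2 was level at 8.78 to 9.21. Kcnn3 measured 8.34, 8.28 and 8.67 at P3 and 7.43, 8.17 and 8.22 at P14, lower in each nucleus, and was not called (-0.49, adjusted p = 0.0656), but was without either LSO array (-0.68, adjusted p = 0.0458 and 0.0471). Kcnn4, a channel gene of blood and epithelial cells, stayed between 5.84 and 6.07 in the probe set that stood for it. Its second set was lower at P14 in each nucleus, with a mean difference of -0.61. Of 3 tested genes for enzymes that set the calcium sensitivity of SK channels, the phosphatase gene Ppp2ca fell by 0.28 and both casein kinase genes were not called. The share called was 33.3%, beside 41.0% of all tested genes.

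Kcnt1 encodes the sodium-activated channel Slack, which is prominent in MNTB neurons. It measured 7.58, 7.70 and 7.72 at P3 and 7.56, 7.31 and 7.32 at P14 and was not called (-0.27, adjusted p = 0.152), with 0.02 between the ages in VCN. Fmr1, whose protein product binds Slack, fell by 0.49 ± 0.10 (adjusted p = 0.0125). Kcnt2, the gene of the related channel Slick, measured 6.07, 6.45 and 5.82 at P3 and 4.34, 5.19 and 4.24 at P14. Its mean lay under the filter, but the ages did not overlap and the 3 nuclei's differences of -1.72 (VCN), -1.26 (LSO) and -1.58 (MNTB) had 1 sign. With no filter it was called (-1.52, adjusted p = 0.00171). In VCN and MNTB its P14 values were within the range of the unspiked controls.

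Kcne genes encode small single-span subunits of Kv7 and other channels. Kcne1l, also known as Kcne5, measured 7.65, 8.75 and 8.86 at P3 in VCN, LSO and MNTB, and 8.25, 8.81 and 8.72 at P14, lowest in VCN at both ages. Kcne4 measured 6.54 to 6.97 at P3 and 6.98 to 7.13 at P14. Neither was called for age (adjusted p = 0.422 and 0.273). Kcne1 and Kcne3 lay in or below the range of the unspiked controls on all arrays. Kcne2, a subunit gene of the choroid plexus, was at 3.35 to 3.57 on 5 arrays and at 4.80 in VCN at P14. That array also held the choroid plexus marker Ttr at 12.58, against 6.61 to 6.93 on the other 5. The part of choroid plexus tissue in the Kcne2 value was not tested.

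**Figure D3:**
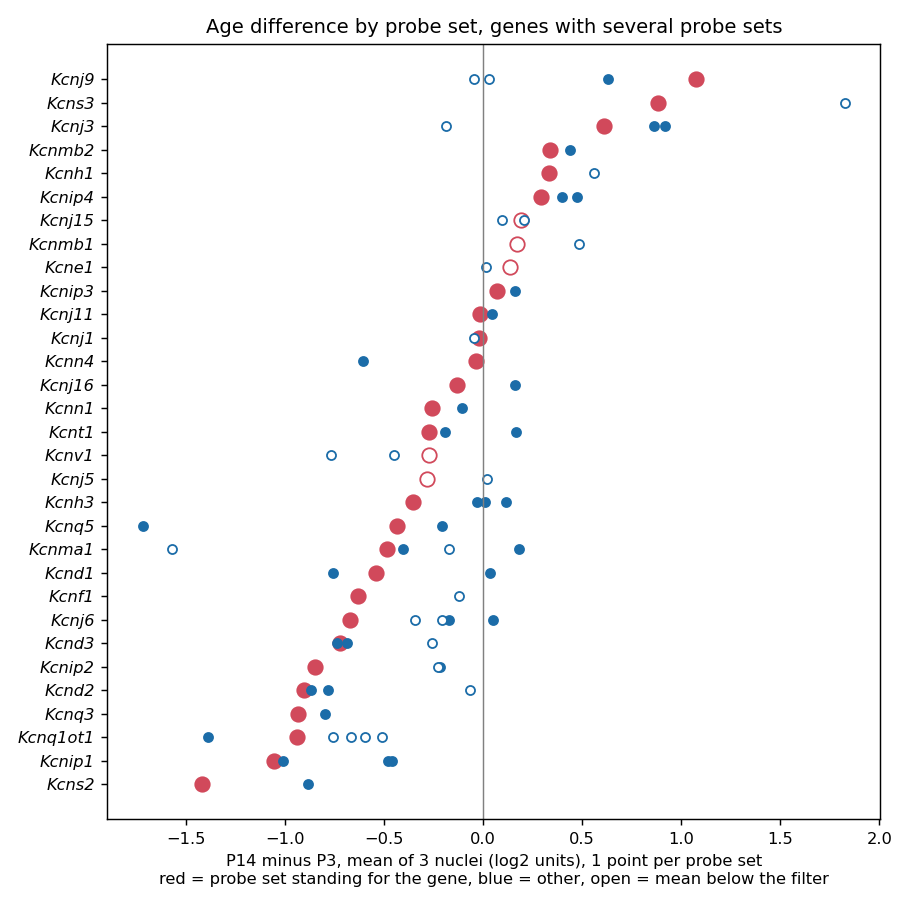
Age difference (P14 minus P3, mean of the 3 nuclei, log2 units) of each probe set of the 31 genes that have several, with the set standing for the gene in red, other sets in blue and open points for sets whose mean lay below the filter. All sets of Kcnd2, Kcnd3, Kcnip1, Kcnq1ot1 and Kcns2 lie left of 0, while those of Kcnj9, Kcnj6 and Kcnma1 lie on both sides; some open points are no brighter than the unspiked controls.

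Of the 16 called members, 11 had several probe sets with a mean above the unspiked controls, and for 9 of these every such set had the same sign of the age difference. The exceptions were Kcnj6 and Kcnj9. Called members differed in how firmly they held. The 6 fits that each left out 1 array gave only 1 age estimate per nucleus left out, since either array of a nucleus gave the same one. Calls stood in all 6 fits that each left out 1 array for 9 members, and under every alternative run for 7: Kcnd2, Kcnip1, Kcnj10, Kcnmb4, Kcnq1ot1, Kcns2 and Kcns3. The last was not tested under the stricter filter or with the median of probe sets, nor was Kcnq1ot1 with that median. Among settings that kept all arrays, testing every gene with no filter ended the calls of Kcnj3 (adjusted p = 0.0541), Kcnj6 (0.0583), Kcnj8 (0.0565) and Kcnf1 (0.0693). Dropping the nucleus term ended those of Kcnh2 (adjusted p = 0.0549), Kcnj3 (0.0532), Kcnj6 (0.0795) and Kcnf1 (0.0659). Kcnf1 was also not called with no intensity trend (0.0529) or with the median of probe sets (0.0626).

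Differences between nuclei were tested over the 2 ages with the same model, so these p-values measure repetition over ages and not over animals. None of the 40 members was called by limma in any contrast, beside 0.162% of all tested genes for MNTB against LSO, 0.602% for MNTB against VCN and 0.370% for VCN against LSO. At an unadjusted p under 0.05 there were 8 members (20.0%, against 6.8% of all genes) for MNTB against LSO, 9 (22.5%, against 9.53%) for MNTB against VCN and 6 (15.0%, against 8.98%) for VCN against LSO. With the variation summed over the 40 tested members, age accounted for 48.5% of it and nucleus for 34.2%. Summed over all tested genes, the values were 68.8% and 21.9%. Genes that vary most weigh most in these sums. Nucleus accounted for over 50% of the variation in 10 members.

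Kcnh1 had the largest difference between MNTB and VCN. MNTB was below VCN by 1.11 at P3 and by 2.22 at P14 (-1.67 ± 0.28, adjusted p = 0.0937), and below LSO by 1.33 and 1.55 (-1.44 ± 0.28, adjusted p = 0.284). Without the VCN P3 array both contrasts were called for Kcnh1, at -2.17 (adjusted p = 0.0111) and -1.44 (adjusted p = 0.0272), and without the VCN P14 array that against LSO was (adjusted p = 0.0278). Kcnh7 went the other way, with MNTB above VCN by 0.79 and 1.06 (0.92 ± 0.16, adjusted p = 0.0937). Kcnmb4 was higher in MNTB than in VCN by 0.81 at P3 and 1.16 at P14 (0.98 ± 0.15, adjusted p = 0.068), the lowest p of any member between nuclei. Kcnmb2 was above LSO in MNTB by 1.18 and 1.94 (1.56 ± 0.35, adjusted p = 0.362) and was called without either VCN array (adjusted p = 0.0475 and 0.0491). Kcnj14 was lower in VCN than in LSO by 0.72 and 3.63 (-2.17 ± 0.62, adjusted p = 0.358), and was called without the VCN P3 array (-3.38, adjusted p = 0.0134), which leaves the P14 arrays as the direct comparison of these nuclei; MNTB against VCN was then called too (2.30, adjusted p = 0.0422). The same array's removal gave a call for Kcnip4 (-1.82, adjusted p = 0.0416) and Kcnj16 (-1.12, adjusted p = 0.0439) between VCN and LSO. Without the VCN P14 array, the estimate for Kcne1l in MNTB against VCN was 1.16. In the fits that left out a VCN array, more of all tested genes were called between nuclei as well.

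**Figure D4:**
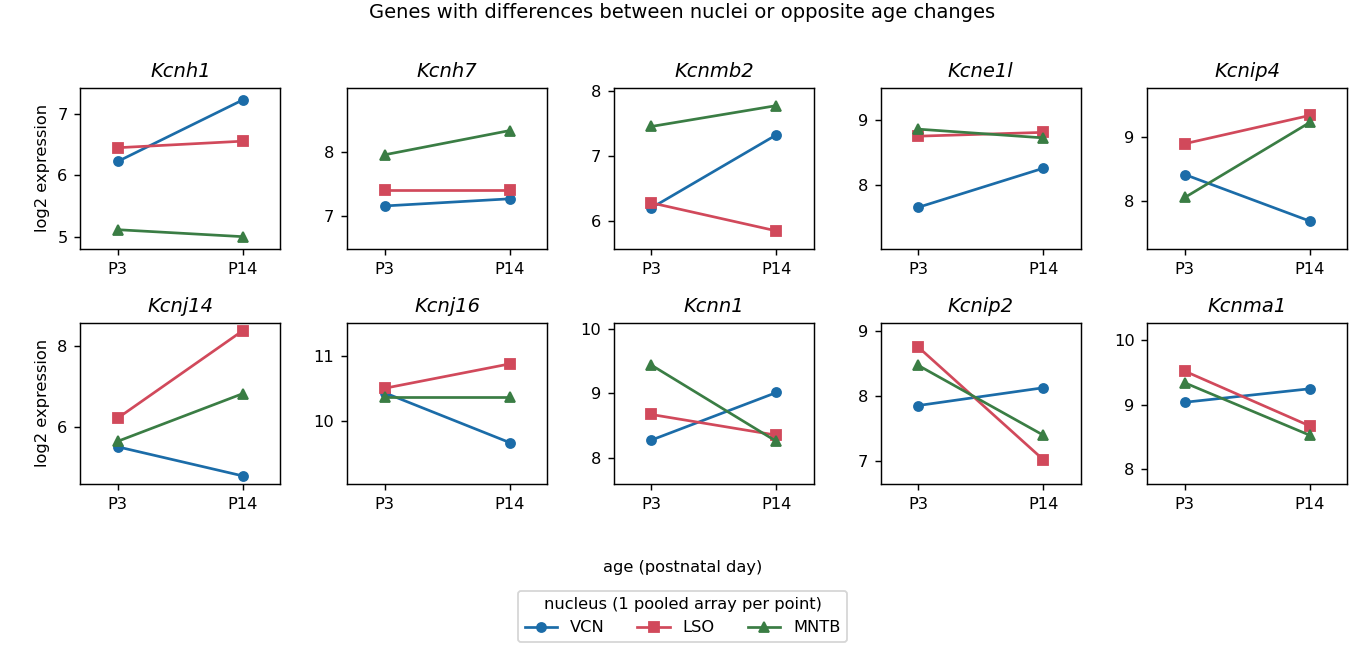
Log2 expression of 10 members with differences between nuclei or with age differences of unlike sign, 1 pooled array per point, joined within each nucleus; the axes start at different levels. Kcnh1 is lowest and Kcnh7 and Kcnmb2 are highest in MNTB at both ages, and the VCN line runs against the other nuclei for Kcnj14, Kcnip4, Kcnn1, Kcnip2 and Kcnma1.

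In several members VCN differed from the other nuclei in the sign of the age difference. Markers of cell types also set VCN apart. The summed signal of 7 cerebellar granule cell markers, which granule cells of the cochlear nucleus share, was 13.70 at P3 and 13.24 at P14 in VCN and 9.46 to 10.37 in the other nuclei. That of ependymal markers was 11.33 and 11.41 in VCN and 9.47 to 9.93 elsewhere, and choroid plexus markers reached 12.75 in VCN at P14 against 8.65 to 10.06 on the other arrays. The part of these cells in the VCN values of Kcnj14, Kcnip4, Kcnip2, Kcnn1, Kcnma1 and Kcnh1 was not tested. Markers set VCN and MNTB apart but not LSO. The retinal and auditory gene Atoh7 measured 9.46 and 11.07 in VCN and 5.92 to 7.93 elsewhere, and the glycine transporter gene Slc6a5 was highest in MNTB at each age, at 12.50 and 13.02. The vesicular glutamate transporter gene Slc17a7 was at 8.50 in VCN at P14 but at 4.83 in VCN at P3. Slc17a6, the only marker listed for LSO, measured 9.96 and 9.80 there and was highest in VCN, at 11.06 and 11.04, so the LSO label has no marker of its own here.

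Over all 24 tested partner genes 2 rose, Abcc9 and Aqp4, and 9 fell, with a median difference of -0.20. The share called was 45.8%, near the 41.0% of all tested genes. None was called between nuclei by limma. General neuronal markers moved both ways with age, 3 of 10 rising and 4 falling (70% called, beside 41.0% of all tested genes). All 6 markers of dividing cells fell (100% called, beside the same 41.0%). The part of neurons or dividing cells in the falls of Kcnd2, Kcnip1, Kcns2 and Kcnmb4 was not tested.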

How the data were processed

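RNA of 6 pools, 1 per nucleus and age, was extracted, amplified and hybridised to 1 array each, per the labels' protocols. The values are log2 expression per probe set, which the authors computed with RMA, a method that corrects background, scales arrays by quantiles and combines a set's probes (per the submitters' processing notes). For its version, the sources used here give none. Array medians of 6.27 to 6.31 fit that scaling.

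Of 45101 probe sets, 34945 named 1 gene through the platform annotation, 932 several and 9160 none; sets naming several were not used. The set of highest mean stood for a gene, names ending in _x_at only where no other existed. Genes at or above the 40th percentile entered a limma fit (limma 3.58.1, R 4.3.3; age and nucleus additive, variance trend, two-sided, Benjamini-Hochberg over 12958 genes). The fit left 2 residual degrees of freedom, to which the prior added 3.95. The code was tested on simulated data. Differences between single arrays have no test. Every member could be named, and other genes come from the partner and cell type lists. Members and lists were chosen with earlier results of these data known. Alternatives were the median over probe sets, x_at sets kept, no filter or one at the 60th percentile, centred arrays, values floored at 4.47, no trend, no nucleus term and leaving out each array. No batch or scan date was known, so none was tested. The number of arrays limits the precision. Motifs were searched as exact letters in RefSeq windows, which 42 members had.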

Additional observations from a re-analysis of the deposited data

Results flagged for a closer look

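Age differences of clearly opposite sign between nuclei (at least 0.5 log2 units up in one and down in another) were found for 3 members; with 1 array per nucleus and age, the difference between nuclei was not tested. Kcnip4 was lower at P14 in VCN (-0.72) and higher in LSO (0.44) and MNTB (1.16). Kcnj14 was lower in VCN (-0.73) and higher in LSO (2.18) and MNTB (1.19). Kcnn1 was higher in VCN (0.74) and lower in LSO (-0.32) and MNTB (-1.18).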

How the results depend on the processing

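No value of a called member changed sign under any alternative. The count of 16 members called for age was 13 to 17 under the settings that kept all arrays. With 1 array left out it ran from 10 to 17 (10 without either MNTB array), that of higher members from 4 to 7 and that of lower members from 6 to 10. Without either MNTB array the calls for age over all 12958 tested genes dropped too, from 5317 to 3142 (P3 array left out) and 3176 (P14 array left out). Between nuclei, the count of 0 ran from 0 to 2 for MNTB against LSO, from 0 to 2 for MNTB against VCN and from 0 to 3 for VCN against LSO with 1 array left out, and every call there came from leaving out a VCN array. Centring the arrays moved the median of all tested genes from 0.03 to 0.05 and lost the call of Kcnf1. No paired analysis was possible because the labels give no replicate numbers; nucleus is the block of the age contrast. Each nucleus and age is 1 pool, so the spread between animals is unknown. Signal near that of the unspiked controls (2.84 to 4.42) cannot show a fall, which limits Kcnt2 at P14 and the 4 members at or below them on all arrays.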
